A study of Gossypium bickii with 18 samples.

Results

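The transcripts described here rose in cotyledons of Gossypium bickii between 12 h and 24 h after imbibition and stayed up to 48 h. They were chosen from the mean FPKM (fragment counts scaled to gene length and to library depth) of 3 libraries per time. A member had at least 10 FPKM at 24 h and at least 3 times the mean at 0 h and at 12 h. Its mean at 36 h lay between 0.5 and 1.5 times that at 24 h, and its mean at 48 h lay above 0.5 and below 3 times that at 24 h. Of 43790 gene IDs listed, 201 met the rule. The rise to 24 h and the plateau after it are therefore how the members were picked and not findings.

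Gossypium bickii is a wild diploid cotton from Australia, and all 18 libraries were made from cotyledons, with no genetic change or agent named. The groups, each of 3 libraries, were 0 h with no light condition given, 12, 24, 36 and 48 h under light, and 24 h in the dark. The replicates are described as biological, but no label says that each had its own plants or seed lot, so p-values measure only the spread between these samples. The 24 h column names of the time-course table give neither light nor dark. They were taken as the light libraries, since the dark libraries have columns of their own in the second table and each other imbibed time of the series was sampled only under light.

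Imbibition is the uptake of water that starts germination. The dry cotyledon holds messenger RNA stored during seed development, which is replaced by new transcription as reserves are used up, and under light the cotyledon turns from a store into a green leaf. In G. bickii the pigment glands, which hold terpenoids such as gossypol, form in the cotyledon only during germination. Bulk cotyledon RNA mixes all cell types, so more RNA per cell and more cells of a type cannot be told apart. The files do not pair IDs with gene names, so no member is given a function, and the identity of the tissue could not be checked against marker genes.

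As a group the members grew from a trace of the transcriptome to a few percent of it. Their share of all FPKM averaged 0.111% ± 0.00424 in the 0 h libraries (SD, n = 3) and 0.504% ± 0.0600 in those of 12 h. It then averaged 2.49% ± 0.0911, 2.83% ± 0.372 and 2.94% ± 0.337 at the 3 later times. At 0 h 77, 85 and 82 of the 201 members stood at 1 FPKM or more in replicates 1 to 3, against 194, 187 and 189 at 12 h and all 201 in each library from 24 h on. The median of the members' mean levels was 0.523, 5.46, 24.9, 27.1 and 31.2 FPKM at the 5 times in order. Replicate 3 at 36 h stood apart from its group, with 12942 FPKM summed over the members against 16825 and 15860 in replicates 1 and 2. At 24 h 88 members lay under 20 FPKM, 86 from 20 to under 100 FPKM and 27 at 100 FPKM or more. The 10 highest made up 40.2% of the members' summed mean at 24 h.

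**Figure D1:**
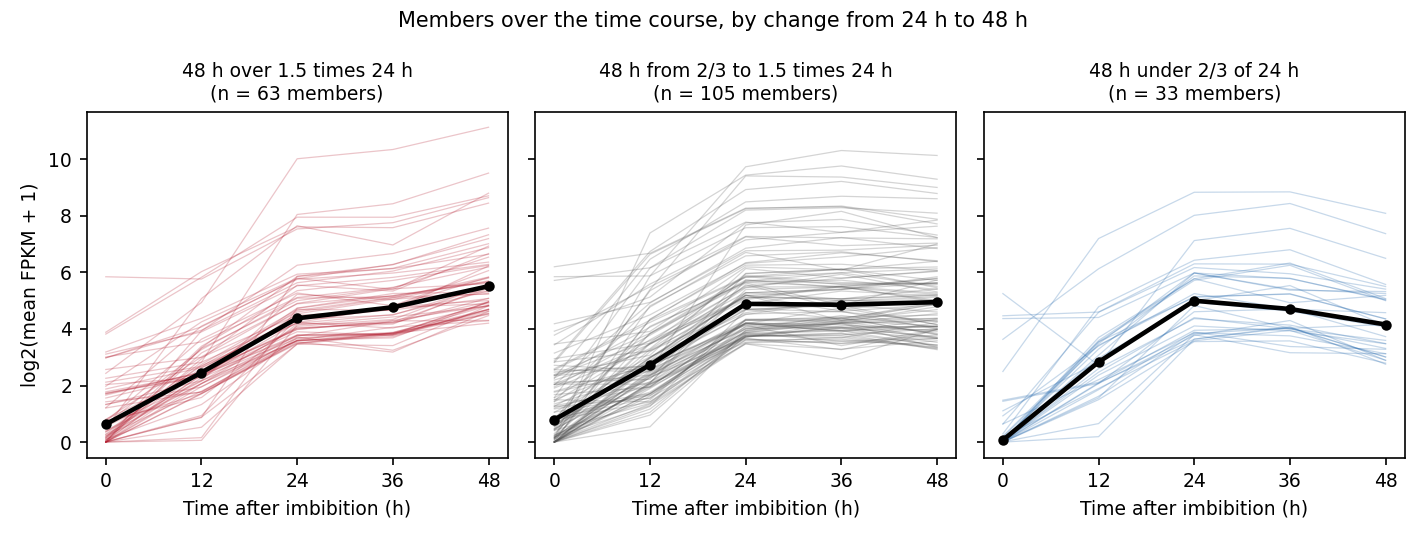
Mean levels of the 201 members as log2(mean FPKM + 1) against hours after imbibition, 1 thin line per member (mean of 3 libraries) and the median of each panel in black. The panels divide the members by the ratio of the 48 h to the 24 h mean, with 63 members above 1.5, 105 between, and 33 below 0.667 (2/3), and in each panel the median line climbs from 0 h through 12 h to 24 h.

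The member with the highest mean at 24 h was Gbi13G3569. It stood at 4.49, 1.33 and 7.35 FPKM in 0 h replicates 1 to 3, at 42.6, 31.7 and 14.4 at 12 h, and at 1209, 1012 and 886 at 24 h. It then measured 1746, 1609 and 543 FPKM at 36 h and 2042, 1603 and 3085 at 48 h. Every library from 24 h on lay above all libraries before it, while the 36 h values spread from below to above those of 24 h, with replicate 3 the low one. The next highest, Gbi04G0878, stood at one level over the first 12 h (log2 difference -0.00), with 53.0, 55.3 and 61.6 FPKM at 0 h and 74.8, 48.4 and 49.8 at 12 h. It reached 635, 1040 and 876 FPKM at 24 h, then 1374, 1255 and 1174 at 36 h and 1041, 964 and 1363 at 48 h. Its 0 h and 12 h libraries overlapped and those of 36 h lay above all of 24 h, though that last difference did not pass (log2 difference 0.60, SE 0.23, limma adjusted p = 0.143).

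Members differed widely in how far they had already come by 12 h. The rule sets no direction between 0 h and 12 h, but it holds both below the 24 h mean, so the counts are a description. In 142 of 201 members the 12 h mean was at least 3 times that at 0 h, and in 5 it was lower than at 0 h. The median member had covered 48.3% of its way from 0 h to 24 h on the log2(FPKM + 1) scale by 12 h, with quartiles of 27.1% and 57.5%. A gene was called when its limma adjusted p over all genes tested was under 0.05 and its log2 difference was at least 1 in size. From 0 h to 12 h, 137 members were called higher (68.2%), where 30.0% of the 26086 IDs tested were, and 1 was called lower (0.498%), where 11.6% were. In either direction that made 138 members, beside 41.6% of all IDs. After quantile normalization 104 members (51.7%) were called higher and 1 lower, beside 17.6% and 17.5% of all IDs, and after median-of-ratios scaling 126 (62.7%) and 1, beside 23.1% and 18.9%. The members' median log2 difference was 1.72, against 0.40 over all IDs tested. After quantile normalization these medians were 1.14 and -0.09, so the members lay above the median ID by 1.32 and 1.24 log2 units under the 2 scalings. The 0 h group has no light condition and the 12 h group was under light, so imbibition and light cannot be told apart in this step.

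The steepest first steps were those of Gbiscaffold_398G0001 and Gbi09G0286. Gbiscaffold_398G0001 was nearly absent at 0 h, at 0.0232, 0.147 and 0.141 FPKM, and stood at 177, 183 and 141 FPKM at 12 h (log2 difference 7.25, SE 0.25, limma adjusted p = 1.67e-11). It climbed to 554, 880 and 645 FPKM at 24 h and remained at 495 to 1189 in the 6 later libraries. Gbi09G0286 went from 0.0323, 0.214 and 0 FPKM at 0 h to 62.1, 58.0 and 53.3 at 12 h (log2 difference 5.77, SE 0.21, limma adjusted p = 2.96e-11), then to 204, 163 and 204 at 24 h. For both, all 12 h libraries lay above all 0 h libraries and below all 24 h libraries.

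Gbi08G2514 was the only member called lower in that first step, and it went down before it came up. It stood at 42.8, 24.3 and 44.1 FPKM at 0 h and fell to 8.19, 2.61 and 5.89 at 12 h (log2 difference -2.59, SE 0.30, limma adjusted p = 2.69e-06). At 24 h it measured 128, 165 and 122 FPKM, at 36 h 180, 211 and 171, and at 48 h 105, 75.9 and 87.2. No 12 h library overlapped with those on either side, and the step from 36 h to 48 h was again a fall (log2 difference -1.07, SE 0.30, limma adjusted p = 0.00786). In the dark it was also well expressed, at 281, 312 and 205 FPKM, above all 3 light values of the same table (160, 204 and 151), with a log2 difference of light minus dark of -0.62 that did not pass (SE 0.19, limma adjusted p = 0.0912).

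At the other end, 10 members were still under 1 FPKM in the mean at both 0 h and 12 h. The 2 highest of these at 24 h, singled out after their values were seen, were Gbi07G0346 and Gbi10G3139. Gbi07G0346 stood at 0, 0.0229 and 0 FPKM at 0 h, at 1.07, 0.493 and 0.910 at 12 h and at 58.1, 63.0 and 50.5 at 24 h. It went on to 101, 83.2 and 44.5 FPKM at 36 h and 189, 136 and 155 at 48 h. Gbi10G3139 was listed at 0 in all 0 h libraries and at 0, 0.262 and 0.0838 FPKM at 12 h, and measured 32.6, 21.7 and 22.4 at 24 h, then 39.3, 30.6 and 35.5 at 36 h. In both, all 24 h libraries were above all earlier ones by a wide gap. Among the members, 38 were listed at 0 in all 0 h libraries and 0 in all 12 h libraries.

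**Figure D2:**
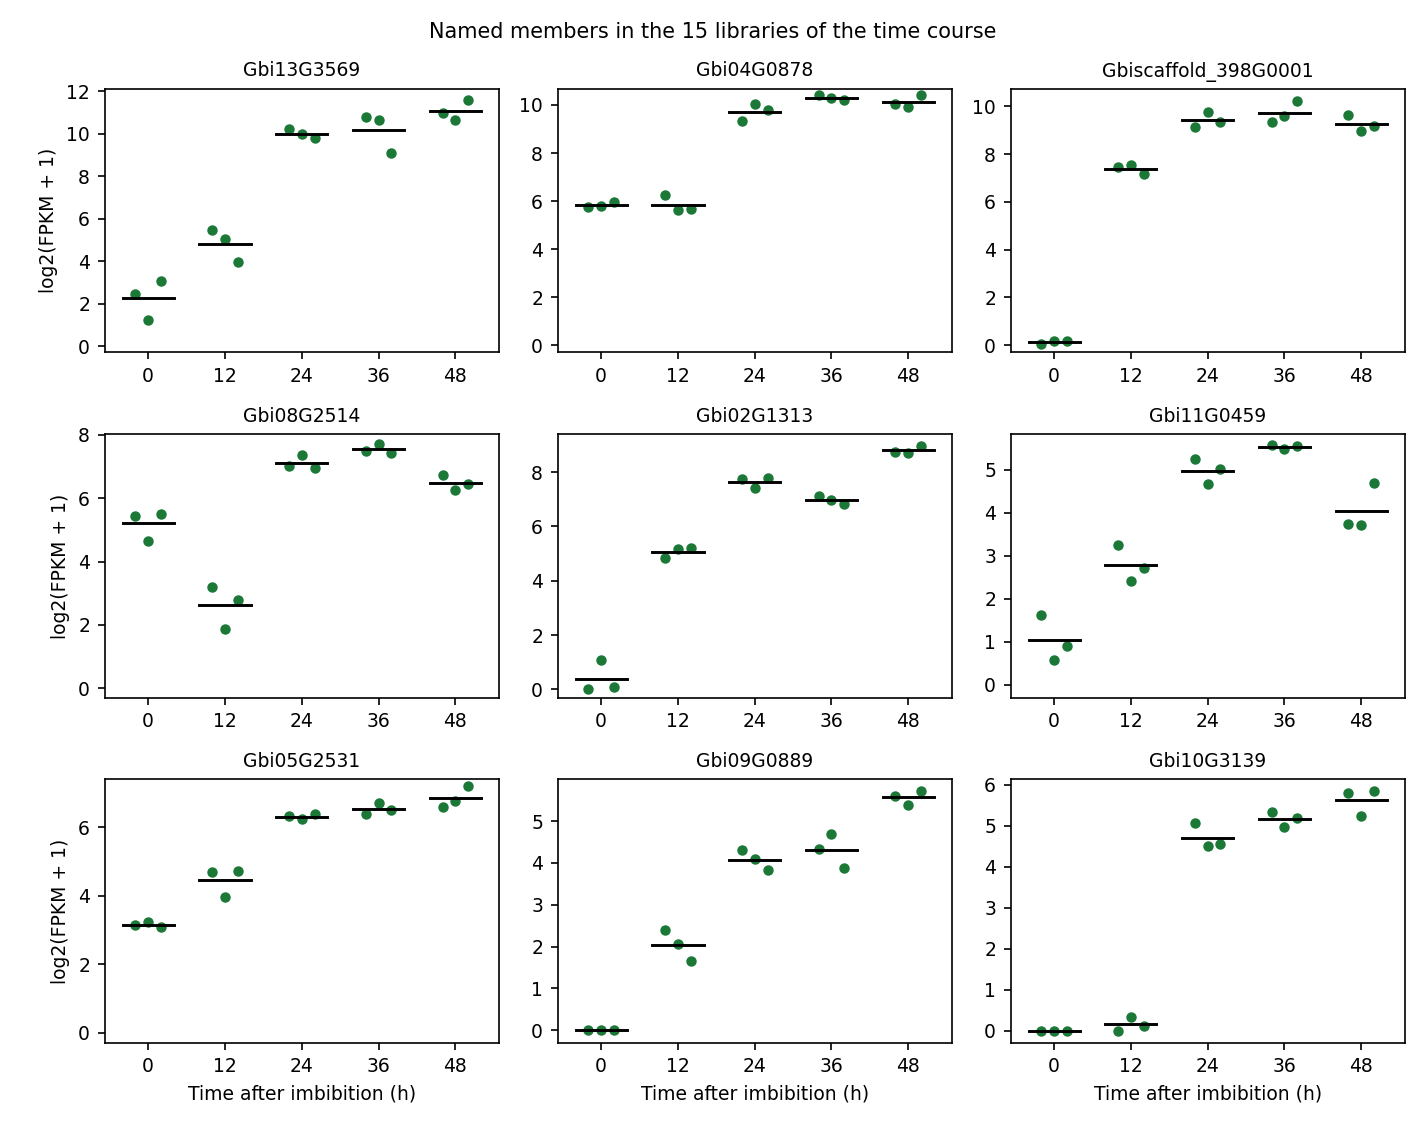
Values of 9 members in the 15 libraries of the time course, as log2(FPKM + 1) against hours after imbibition, with 1 point per library (replicates 1 to 3 from left to right) and a bar for the mean of the 3 log2 values. Gbiscaffold_398G0001 is near 0 at 0 h and at 141 FPKM or more in all 12 h libraries, Gbi08G2514 dips at 12 h, Gbi10G3139 is below 0.3 FPKM until 12 h, and Gbi02G1313 and Gbi11G0459 part at 48 h.

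The step from 12 h to 24 h is the one the rule asks for, and 200 of 201 members were called higher there, beside 9.53% of all IDs tested, and 0 lower, beside 2.21%. After quantile normalization these were 199, beside 6.85%, and 0, beside 3.50%. The ratio of the 24 h to the 12 h mean had a median of 4.22 and quartiles of 3.41 and 6.14. It was under 4 in 86 members and 10 or more in 24. The member without a call was Gbi13G0214, with 15.1, 18.4 and 6.27 FPKM at 12 h and 83.0, 13.2 and 48.8 at 24 h. It was also the only member in which the libraries of 12 h and 24 h overlapped. The 3-fold rise that the rule asks for favours separate libraries, so this is a description. Against 0 h, all 201 were called higher at 24 h, beside 36.9% of all IDs (11.6% lower). After quantile normalization 198 were, beside 20.2% of all IDs (20.6% lower). In 2 members over 60% of the summed FPKM of the 24 h group lay in a single library. Gbi01G2729 had 85.4% in replicate 2 (2.68, 29.4 and 2.34 FPKM), and Gbi04G0450 had 61.4%, also in replicate 2. The place of these 2 in the list thus rests on that library.

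The plateau held members that went on rising and members that had begun to decline. The highest of the 5 means was at 24 h in 40 members, at 36 h in 59 and at 48 h in 102. From 24 h to 36 h 0 members were called by limma in either direction, beside 2.58% of all IDs higher and 0.579% lower (3.16% together). That share of all IDs depended on the fit. A fit of the 24 h and 36 h groups alone called 0 of the 26086 IDs. Leaving out each library gave 455 to 1402 IDs called, against 824 in the reported fit. With no fold minimum 4 members (1.99%) were called, beside 6.55% of all IDs. From 24 h to 48 h 31 were called higher and 0 lower, beside 19.1% and 14.2% of all IDs. With no fold minimum 89 (44.3%) were called, beside 59.4% of all IDs. After quantile normalization 30 were called higher and 8 lower, beside 16.2% and 17.2%. The rule caps these changes in both directions. Its limits for 36 h (0.5 and 1.5 times) and its lower limit for 48 h lie at or within 1 log2 unit. A call needs that size, so few or 0 calls there follow from the rule. From 36 h to 48 h, which the rule limits less closely, 21 were called higher (10.4%) and 10 lower (4.98%), beside 14.8% and 12.3% of all IDs. The split of these calls depended on single libraries. Without 36 h replicate 3, 12 members were called higher and 17 lower, beside 13.4% and 11.9% of all IDs. Without 48 h replicate 3, they were 18 and 17, beside 12.9% and 14.1%, so the split over all IDs moved too.

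Gbi04G2290 and Gbi11G1756 rose most from 24 h to 48 h among members, which the rule holds below a 3-fold rise. It left out 22 IDs that met its other limits and reached 3 times or more. The values and p-values below are thus a description. Gbi04G2290 measured 25.9, 23.4 and 25.3 FPKM at 24 h, 27.2, 27.9 and 18.0 at 36 h and 67.6, 64.2 and 89.9 at 48 h. It was flat over the first 12 h of the plateau and then rose by 1.57 log2 units (SE 0.19, limma adjusted p = 1.04e-05), with no overlap. Gbi11G1756 had a higher mean at each time than before, with a mean of 8.97 ± 1.35 FPKM in the 12 h libraries (SD, n = 3), then 31.0 ± 7.08, 42.8 ± 14.1 and 92.0 ± 8.05. Its log2 difference between 48 h and 24 h was 1.56 (SE 0.23, limma adjusted p = 3.79e-05), and its 24 h and 36 h libraries overlapped. Gbi02G1313 had the largest rise from 36 h to 48 h, after a dip. Its 24 h values were 211, 171 and 217 FPKM, its 36 h values 138, 123 and 113 and its 48 h values 428, 416 and 492 (log2 difference between 48 h and 36 h 1.83, SE 0.23, limma adjusted p = 1.52e-05). The 3 times did not overlap, but the dip itself did not pass (log2 difference -0.68, SE 0.23, limma adjusted p = 0.103).

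The largest falls from 36 h to 48 h were those of Gbi11G0459 and Gbi02G0197. Gbi11G0459 stood at 37.0, 24.4 and 31.5 FPKM at 24 h, at 46.8, 43.4 and 45.8 at 36 h and at 12.4, 12.2 and 24.9 at 48 h. It fell by 1.48 (SE 0.30, limma adjusted p = 0.000976), and 2 of its 48 h libraries lay below all 24 h libraries. Gbi02G0197 was at 26.7, 19.9 and 9.47 FPKM at 36 h and at 8.47, 4.60 and 6.13 at 48 h, a fall of 1.33 (SE 0.35, limma adjusted p = 0.00514). Its 36 h and 48 h libraries were separate by a small margin only, through replicate 3 at 36 h.

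In relative terms, the medians of the 3 courses after 24 h differed at 0 h more than at 12 h, though all 3 lay under 1 FPKM at 0 h. Members above 1.5 times their 24 h mean at 48 h had a median mean of 0.548 FPKM at 0 h and 4.50 at 12 h, and those in between had 0.732 and 5.63. The 33 members below 2/3 (0.667) of their 24 h mean had a median of 0.0514 FPKM at 0 h and 6.12 at 12 h. The ratio of the 12 h to the 0 h mean exists only for the 163 members with a 0 h mean above 0. Among these its median was 54.5 in the course below 2/3, against 4.89 in between and 5.90 above 1.5 times. With 0 h means so near 0, these ratios are uncertain. Of all 33 members below 2/3, 27 (81.8%) had been called higher from 0 h to 12 h. This was so for 73 of the 105 in between (69.5%) and 37 of the 63 above 1.5 times (58.7%), beside 30.0% of all IDs. These are descriptions with no test, since the values that form the courses also chose the members.

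The 24 h light against dark comparison asked how far illumination alters these transcripts, and the dark libraries took no part in the choice of members. Most members were well expressed without light: 173 of 201 stood at a mean of 10 FPKM or more in the dark, and 195 at 1 FPKM or more. The ratio of the light to the dark mean had a median of 1.23 and quartiles of 1.02 and 1.62. Among the 196 members tested in that table it reached 2 in 26 (13.3%), beside 9.44% of all IDs tested, and 3 in 15 (7.65%), beside 3.59%. It was below 1 in 46 (23.5%), beside 38.5%. Over all 201 members it was at least as large as the member's own 24 h to 12 h ratio in 7, of which 2 (Gbi10G3065 and Gbi11G2672) were too low in that table to be tested. The members' share of all FPKM averaged 1.90% ± 0.0244 in the dark (SD, n = 3) and 2.40% ± 0.0945 in light, and every light library (2.51%, 2.33% and 2.37%) was above every dark library (1.87%, 1.92% and 1.91%). The light libraries of this table are those that had to be high at 24 h for a member to be chosen, which by itself favours light.

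Of the 196 members tested in this table, 20 were called higher in light (10.2%) and 1 lower (0.510%), beside 2.55% and 0.607% of 23059 IDs (3.15% in either direction). After median-of-ratios scaling 12 (6.12%) were called higher and 1 lower, beside 1.83% and 0.892%, and after quantile normalization 20 (10.2%) and 1, beside 1.82% and 0.967%. The median log2 difference was 0.28 over members and 0.13 over all IDs. After median-of-ratios scaling these medians were 0.13 and -0.00. All 3 light libraries lay above all 3 dark libraries in 71 members tested, beside 23.5% of all IDs, and below in 10, beside 11.8%. The same 24 h libraries also selected 380 further IDs that met the first 3 conditions and left the list later by their 36 h or 48 h mean. Of these, 356 were tested, 63 (17.7%) were called higher in light and 3 (0.843%) lower, with a median log2 difference of 0.33. Of 11041 IDs tested that stood at 10 FPKM or more in light, members left out, 3.03% were called higher in light. The set of 380, like these IDs picked as a comparator after the data were seen, carries the same choice on the 24 h libraries. The members' share of calls higher in light was thus above that of all IDs and below that of other IDs with the same rise, and the latter difference was not tested.

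**Figure D3:**
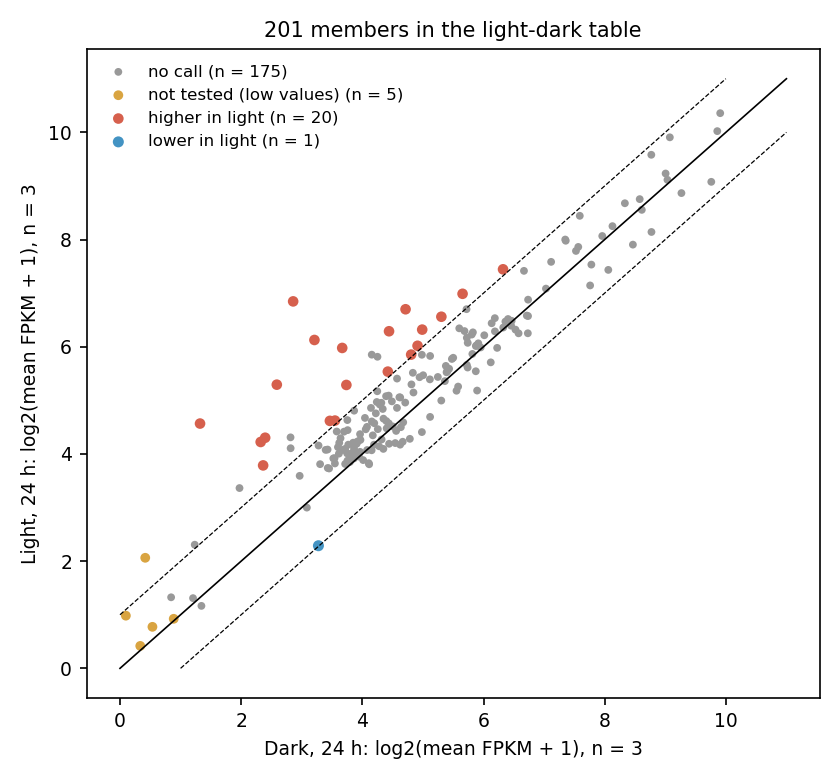
Mean of 3 light against mean of 3 dark libraries at 24 h for the 201 members, each as log2(mean FPKM + 1), with the line of equality and dashed lines 1 log2 unit to either side. The 20 members called higher in light lie above the upper dashed line and span dark means from 1.499 to 79.0 FPKM, while most others follow the line of equality.

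Among members tested, only Gbi05G2531 and Gbi09G0889 had light means over 10 times their dark means. Gbi05G2531 stood at 5.38, 7.91 and 5.46 FPKM in the dark and at 114, 113 and 115 in light (log2 difference 4.01, SE 0.16, limma adjusted p = 0.000163). In the time course it was present at 0 h (7.78, 8.34 and 7.45 FPKM), reached 24.8, 14.7 and 25.3 at 12 h and 79.4, 74.7 and 82.4 at 24 h, and stayed at 82.6 to 146 after that. Its replicates were close within both groups, and the groups were far apart. Gbi09G0889 was at 0.550, 1.69 and 2.25 FPKM in the dark and at 27.0, 22.8 and 18.3 in light (log2 difference 3.30, SE 0.30, limma adjusted p = 0.00253). It was listed at 0 in all 0 h libraries, rose to 4.24, 3.18 and 2.13 FPKM at 12 h and 18.9, 16.2 and 13.1 at 24 h, and averaged 46.5 ± 5.37 at 48 h (SD, n = 3). In both, the light to dark ratio of means (18.2 and 15.1) exceeded the 24 h to 12 h ratio (3.64 and 5.04), each ratio taken within its own table.

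The other 18 members called higher in light had smaller differences, and the median ratio of light to dark over all 20 was 3.09. All 20 kept every light library above every dark library. Gbi06G1159 measured 4.27, 6.02 and 4.75 FPKM in the dark against 39.9, 36.9 and 37.8 in light (log2 difference 2.71, SE 0.16, limma adjusted p = 0.000595), and Gbi13G0423 11.03, 11.4 and 12.7 against 66.5, 52.3 and 67.2 (2.30, SE 0.15, limma adjusted p = 0.000976); both were chosen here after their values were seen. Gbi13G0214, whose 24 h libraries were far apart in the time course too, stood at 8.37, 8.29 and 8.09 FPKM in the dark and at 116, 20.3 and 70.4 in light. Its light values all exceeded the dark ones, but it was called in only 2 of the 6 fits that leave out a library. At the low end, Gbi11G0494 was at 27.0, 26.2 and 27.7 FPKM in the dark and at 53.9, 54.9 and 61.7 in light (log2 difference 1.05, SE 0.12, limma adjusted p = 0.00546). Only 8 of the 20 were called without any 1 of the 6 libraries, among them Gbi05G2531, Gbi09G0889, Gbi06G1159 and Gbi13G0423. The number of members called was 13 without dark replicate 1, 11 without dark replicate 2 and 36 without dark replicate 3, and 12, 18 and 10 without light replicates 1, 2 and 3. Calls over all IDs moved with them, from 3.15% to 1.56%, 1.08% and 9.53% without dark replicates 1, 2 and 3, and to 1.12%, 1.31% and 0.914% without light replicates 1, 2 and 3. Of the 20, 17 (85.0%) had been called higher from 0 h to 12 h, beside 68.2% of all members and 30.0% of all IDs. From 36 h to 48 h 2 of the 20 were called higher, beside 10.4% of all members and 14.8% of all IDs, and 0 lower, beside 4.98% and 12.3%.

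The single member called lower in light was Gbi05G0523, named after its values were seen. It stood at 9.63, 8.09 and 8.32 FPKM in the dark and at 4.97, 3.10 and 3.57 in light (log2 difference -1.003, SE 0.20, limma adjusted p = 0.0355). No library of one group reached the other. But in the fits without dark replicate 1, dark replicate 2, light replicate 1 or light replicate 3, 0 members were called lower in light. Calls lower in light over all IDs fell in these fits too, from 0.607% to 0.211%, 0.0617%, 0.174% and 0.111%. The same light libraries gave 13.8, 8.17 and 10.7 FPKM for Gbi05G0523 in the time-course table, so its light level depends on which table is read.

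**Figure D4:**
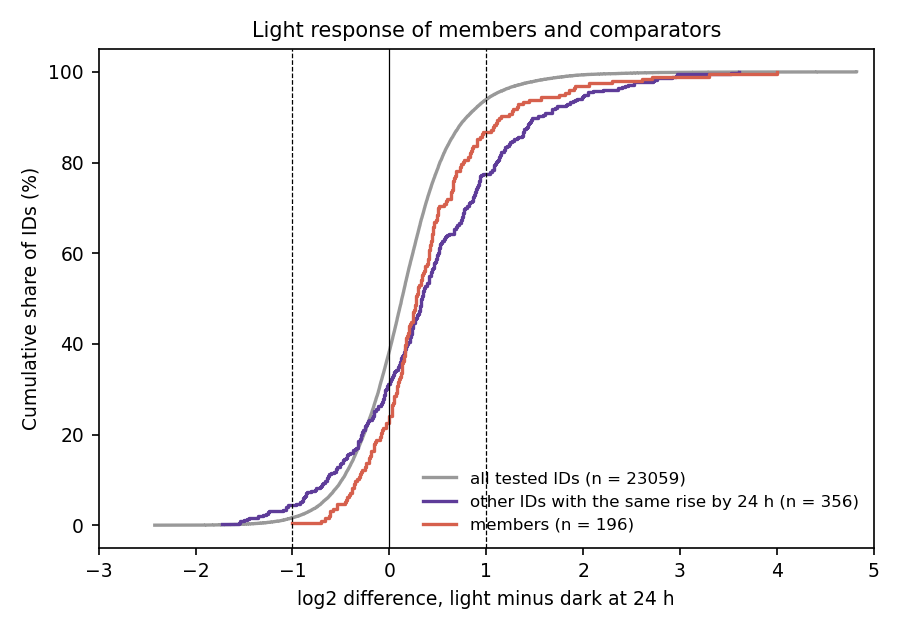
Cumulative share of IDs (%) against the log2 difference of light minus dark at 24 h, for the 196 members tested, 356 other IDs with the same rise by 24 h and all 23059 IDs tested, with dashed lines at -1 and 1. The members' curve lies to the right of that of all IDs, with medians of 0.28 and 0.13, and 76.5% of members lie above 0 against 61.7% of all IDs and 68.8% of the comparator.

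The 2 tables hold the same 24 h light libraries with different values, and this affects a few members strongly. The deviations of each library from its group mean correlated at 0.851 to 0.857 between the 24 h columns and the light columns of the same number, and at -0.108 to 0.117 with the dark columns, across 21341 IDs. The light-dark table was higher by a median of 0.32 log2 units over the members and 0.33 over the 9620 IDs at 10 FPKM or more at 24 h. In 12 members (5.97%) the tables lay over 2-fold from that offset, beside 8.77% of those 9620 IDs, and in all 12 the light-dark table was the lower one. In 7 of them its value was under 0.1 times the other. Gbi03G0778 averaged 14.1 ± 1.96 FPKM in the time course and 0.337 ± 0.335 in light of the other table (SD, n = 3). Gbi13G1978 and Gbi13G1989, picked out after their values were seen, stood at 53.7 ± 13.6 and 51.6 ± 13.1 FPKM in the first and at 1.48 ± 0.682 and 1.51 ± 0.210 in the second. The levels of these 12 are uncertain, and all 5 members that were too low for testing in the light-dark table are among them. With the 12 left out, a step added after the data were seen, 189 members were tested, with 20 called higher in light and 0 lower. Over all 23059 IDs, where no such step was taken, 2.55% were called higher and 0.607% lower.

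**Figure D5:**
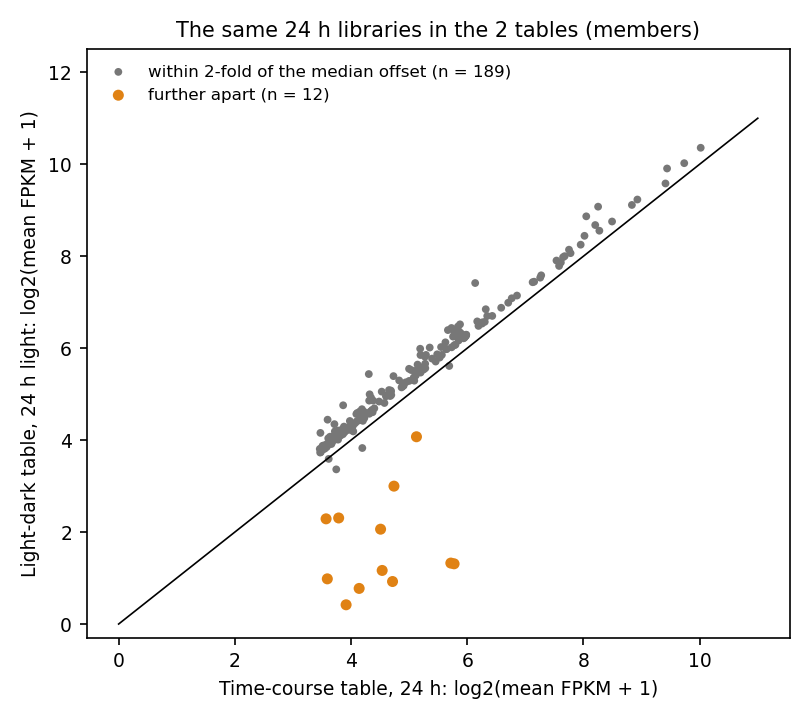
The 201 members at 24 h under light, with log2(mean FPKM + 1) in the light-dark table against the same in the time-course table (3 libraries each) and the line of equality. Most points run parallel to the line and slightly above it, and 12 members (orange) lie well below it.

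Members were scattered over the ID series. They were sorted by the 2 digits after Gbi, as a share of the IDs at 10 FPKM or more at 24 h. Among the numbered series the lowest share was 5 of 498 in series 02 (1.00%) and the highest 17 of 633 in series 07 (2.69%). The most members, 28, were in series 13. Scaffold names were carried by 3 members, of 109 such IDs (2.75%). There were 5 pairs of members with directly neighbouring IDs. Gbi06G1721 and Gbi06G1722, the pair with the highest levels, differed in the size of the rise from 12 h to 24 h. Gbi06G1721 went from 42.3, 42.4 and 38.3 FPKM at 12 h to 687, 558 and 794 at 24 h, and Gbi06G1722 from 10.6, 13.2 and 14.4 to 49.6, 49.4 and 52.8. Their 24 h to 12 h ratios were 16.6 and 3.97, their 48 h to 24 h ratios 0.754 and 0.879, and their light to dark ratios 1.76 and 0.915. Gbi07G1315 and Gbi07G1316 had close rises (4.16 and 3.72) but light to dark ratios of 1.27 and 3.37. The dark values of Gbi07G1316 were spread, at 7.14, 14.4 and 28.9 FPKM against 32.8, 71.9 and 65.7 in light. How the authors' counting shares reads between similar genes is not given in the sources used here, so levels of neighbouring copies are uncertain.

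The spread between replicates of the members was compared with that of other IDs at 10 FPKM or more at 24 h, a floor that does not match the levels. The median SD of log2(FPKM + 1) at 24 h was 0.215 over members, 0.160 over 9419 such IDs and 0.186 over all IDs tested. At 12 h it was 0.232, 0.179 and 0.189, and at 36 h 0.287, 0.212 and 0.231, the widest of the 5 times for the members. The members had the smaller spread of the first 2 sets at 0 h (0.150 against 0.174) and at 48 h (0.254 against 0.261). In the light-dark table it was 0.242 against 0.211 in the dark and 0.235 against 0.170 in light.

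The limits of the rule fell within a continuous range of values. Just inside the level limit was Gbi01G2635, with a mean of 10.02 FPKM at 24 h, and just outside Gbi01G2363, with 9.97. For the 24 h to 0 h ratio, Gbi07G0963 lay inside at 3.16 and Gbi06G1715 outside at 2.76. For the 24 h to 12 h ratio Gbi07G2247 lay inside at 3.001 and Gbi02G1127 outside at 2.997. That last limit turned away the most, 1665 IDs that met every other condition. For the 36 h to 24 h ratio, Gbi08G1235 (0.525) and Gbi09G2772 (1.49) lay inside, and Gbi05G0838 (0.483) and Gbi03G0170 (1.502) outside. For the 48 h to 24 h ratio, Gbi01G2729 (0.5003) and Gbi04G2290 (2.97) lay inside, and Gbi10G0697 (0.496) and Gbi13G4042 (3.01) outside. Of 581 IDs that met the level and both rise conditions, 256 left the list because the 36 h mean was over 1.5 times that at 24 h and 14 because it was under 0.5 times. Another 88 left by a low and 22 by a high 48 h mean.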

How the data were processed

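Total RNA of G. bickii cotyledons was sequenced as 150-base read pairs on an Illumina instrument, per the labels' protocols. The submitters' processing notes name Trimmomatic 0.36, HTSeq 0.6.0 and HISAT2 2.0.4. How these were set, and which genome build, gene models and strand option were used, is not given in the sources used here. Values are FPKM as deposited by the authors in 2 tables, named so per the file headers and names, with 15 libraries and 43790 IDs (time course) and 6 libraries and 49301 IDs (light and dark at 24 h). The tables were compared only within themselves, except where the same libraries are set side by side. Low values of the light-dark table lay on whole-fragment steps, giving depths of 1.06 to 1.16 relative to dark replicate 1. No such steps were seen in the time course, and absolute depth is unknown, so no counting interval is given.

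Tests used limma 3.58.1 in R 4.3.3 on log2(FPKM + 1), two-sided, with a group-means model over all libraries of a table, a trend of variance with mean, and p-values adjusted by Benjamini-Hochberg over all IDs at 1 FPKM or more in at least 3 libraries (26086 and 23059). Log2 differences on this scale understate changes of low values. The steps were tested on simulated data. Members, classes and lists were chosen with earlier results of these data known. Named were the 2 members highest at 24 h and, per comparison and direction, the 2 with the largest difference among called members with separate libraries and a higher mean of at least 10 FPKM, besides those said to be chosen later. The search for members listed at 0 at both 0 h and 12 h found 0. The alternatives were other pseudocounts, filters, scalings, a replicate block, no fold minimum, a fit of the compared groups alone and leaving out each library. Columns of per-sample values left unused numbered 0.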

Additional observations from a re-analysis of the deposited data

How the results depend on the processing

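The list itself moved with the processing. It held 185 IDs with medians in place of means (148 shared with the 201), 161 after median-of-ratios scaling (161 shared), 254 after rescaling to TPM (184 shared), 139 after quantile normalization (137 shared) and 171 to 224 without each library, and 99 of the 201 stayed in it without any 1 library. For 36 h against 24 h, members called were 0 in the reported fit, 1 after quantile normalization and 4 with no fold minimum, and 0 to 2 without each library. With no fold minimum 89 (44.3%) were called for 48 h against 24 h and 82 (40.8%) for 48 h against 36 h, below the 59.4% and 52.9% of all IDs. From 0 h to 12 h, 105 were called after quantile normalization (35.2% of all IDs) and 158 with a pseudocount of 0.1 (54.4% of all IDs). Leaving out each library gave 136 to 141 calls between 0 h and 12 h (40.7% to 41.7% of all IDs). It gave 196 to 200 between 12 h and 24 h (10.6% to 12.7%), and 201 in each case between 0 h and 24 h (47.1% to 49.2%). Between 24 h and 48 h it gave 28 to 34 (30.6% to 33.8%), and between 36 h and 48 h 29 to 35 (24.5% to 29.7%). For light against dark it gave 10 to 36 (0.914% to 9.53%). Light against dark had 21 calls (3.15% of all IDs), and 13 after median-of-ratios scaling (2.72%) and 14 with no filter (0.845%). The median light minus dark log2 difference was 0.28, 0.13 after median-of-ratios scaling, 0.38 after rescaling to TPM and 0.24 to 0.34 without each library. The cause was not tested. The 163 alternative values of the 11 tests of members named for the largest differences with separate libraries all kept direction and call. They were picked for such differences in these same data, and a fit with no fold minimum cannot lose a call. The tally is thus a description. Of the 20 members called higher in light, only 8 were called in all fits that leave out a library. Members named for other reasons are not among the 11 tests. Of those, Gbi13G0214 was called in only 2 of the 6 light-dark fits that leave out a library, and Gbi05G0523 lost its call in some.

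Same-numbered libraries did not deviate together, with correlations from -0.353 to 0.206 and in no comparison all 3 above 0.1. With the replicate number as a block, 138 members were called between 0 h and 12 h (41.6% of all IDs). Calls numbered 200 between 12 h and 24 h (11.7%) and 201 between 0 h and 24 h (48.5%). The block left 0 between 24 h and 36 h (3.02%) and 32 between 24 h and 48 h (33.3%). It left 31 between 36 h and 48 h (27.1%), and 20 for light against dark (3.04%).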
